A study of Mus musculus with 8 samples.

Results

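The platelet-derived growth factor (PDGF) genes were examined as a family of 7 of the 49315 genes counted, namely the receptor genes Pdgfra and Pdgfrb, the receptor-like gene Pdgfrl and the ligand genes Pdgfa, Pdgfb, Pdgfc and Pdgfd. They were chosen by name, with earlier results of these data known, and found by their Ensembl identifiers. The rule itself uses no measured value. The libraries came from bone marrow of wild type mice, which the labels give as C57BL/6J at 6 weeks of age, with 1 library for each of 7 sorted stromal populations (clusters 1 to 7) and 1 library of input marrow cells. The populations were negative for CD31, CD45 and TER119. To divide them the paper names combinations of CD24, CD39, CD54, Sca-1 and Ly-6C, and it lists CD121b among the surface markers examined. The labels name no transgene and no treatment, and the number of mice behind each library is not given in the sources used here.

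PDGFs are secreted dimers that bind receptor tyrosine kinases. PDGFR-α is bound by dimers of the A, B and C chains, whereas PDGFR-β is bound mainly by dimers of the B and D chains, and both receptors signal through adaptor proteins, PI3 kinase and phospholipase C-gamma. In bone marrow, PDGFR-α and Sca-1 are used together to isolate mesenchymal stromal cells, and PDGFR-β is widely used as a marker of pericytes and perivascular stroma. The cells in which the 7 populations were first defined had been selected as Sca-1 and PDGFR-α positive, and an antibody to PDGFR-α (CD140a) is listed for the later sort. A selection on the PDGFR-α protein and the Pdgfra level of a population therefore cannot be told apart.

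The counts on genes summed to 24205863, 25349917, 27102715, 32549319, 12833648, 31669132 and 33238133 in clusters 1 to 7 and to 20162876 in the input library. Levels are given as RPKM, the reads per kilobase of exon and 1e6 counted reads, which allows levels to be compared between genes as well as between libraries. An interval marked 95% covers counting error only and takes reads as independent. PCR duplicates cannot be told from separate molecules, so the intervals can be too narrow. No population had a replicate, so the spread between animals or sorts is unknown and no test between populations was possible. In bulk libraries fewer cells expressing a gene and less RNA per cell cannot be told apart.

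Of 10 marrow stromal marker genes, including Col1a1, Dcn and Cxcl12, all had an RPKM above 2 in clusters 1, 3, 4, 5 and 7 and 8 did so in clusters 2 and 6. In the input 9 did so, with Dcn at 8008, above every sorted library, and Col1a1 at 691, below every sorted library. The input thus held stromal transcripts, and a level above or below it is not read as enrichment over whole marrow. Neutrophil genes were also abundant in all libraries, with an RPKM of S100a9 of 4834 or more. The cluster 5 and input libraries stood apart from the rest. Lars2, mmu-mir-689-2 and the genes overlapping Rn18s-rs5, which is annotated as 18S ribosomal RNA, held 34.8% of the cluster 5 counts and at most 10.4% of the counts of any other library. Cluster 5 was the lowest of the 7 sorted libraries for 46.3% of the 12360 genes with an RPKM above 2 in at least 1 of them, followed by cluster 6 for 25.5%, and with TMM factors its share was 26.4%. The input library had at least 3 counts on 34791 genes, against 20645 to 23096 in the sorted libraries. With the composition factors of edgeR (TMM), which rescale a library by its shared genes, every RPKM moved on the log2 scale by 0.44 and 0.37 in clusters 5 and 6, by -0.14 in cluster 1, by -0.68 for the input, and by at most 0.05 elsewhere. Levels and orders are by total count unless TMM is named, and where TMM changed a library that is described as the highest or lowest for a gene, the TMM library is named as well.

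Pdgfra, which encodes PDGFR-α, lies on the plus strand of chromosome 5 at chr5:75152292-75198215 in the GRCm38 coordinates of the counts. Its RPKM was 28.1, 4.37, 18, 19.8, 7.51, 7.44 and 26.4 in clusters 1 to 7, against 14.1 in the input. Clusters 1, 3, 4 and 7 were thus above the input and clusters 2, 5 and 6 were below it. The level in cluster 1 was 6.42 times that in cluster 2 (95% interval 6.03 to 6.85). Clusters 5 and 6 did not differ beyond counting error, with a ratio of 1.01 (0.935 to 1.09), whereas every other pair of neighbours in the order did. With TMM factors clusters 7 and 1 led together at 25.5 and 25.4, with a ratio of 1.00 (0.972 to 1.04), cluster 2 was still lowest at 4.39, and cluster 2 was the only sorted library below the input. By RPKM, Pdgfra was at or above 86.1% of all genes in cluster 2 and 91.4% or more in each of the other libraries.

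Pdgfrb, which encodes PDGFR-β, lies on the plus strand of chromosome 18 at chr18:61045150-61085061. Its RPKM was 45.3, 12.3, 15.8, 45.5, 18.8, 7.18 and 64.5 in clusters 1 to 7, against 18.1 in the input. Clusters 7, 4 and 1 formed an upper group by total count, and cluster 1 was 2.40 times the next library, cluster 5 (2.26 to 2.55). With TMM factors this gap was 1.61 (1.52 to 1.71). The next step, from cluster 5 to cluster 3, was then about as large at 1.59 (1.48 to 1.70). The level in cluster 7 was 8.99 times that in cluster 6 (8.48 to 9.54), the widest range of the 7 genes on this scale. Clusters 4 and 1 did not differ beyond counting error (ratio 1.00, 0.971 to 1.04), although with TMM factors cluster 4 was above cluster 1 (1.14, 1.10 to 1.18). With TMM factors the cluster 7 level was 6.74 times that of cluster 6 (6.36 to 7.15), and the range of Pdgfd was then wider, at 8.47.

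Both receptor genes were high in clusters 1, 4 and 7, but their proportion varied. Pdgfrb was above Pdgfra in 5 of the 7 sorted libraries and in the input. The ratio of Pdgfra to Pdgfrb was 0.620, 0.357, 0.435, 0.398 and 0.409 in clusters 1, 2, 4, 5 and 7. It was 1.14 in cluster 3 (1.09 to 1.20), the only library in which Pdgfra was above Pdgfrb beyond counting error. In cluster 6 the receptors did not differ beyond counting error, with a ratio of 1.04 (0.968 to 1.11), and in the input the ratio was 0.779 (0.735 to 0.825). These ratios compare genes within a library and do not depend on the scaling between libraries, but they rest on the exon lengths of 10024 bases for Pdgfra and 5478 for Pdgfrb. In reads alone Pdgfra was also above Pdgfrb in cluster 1, with 6813 against 6006, and in the input, with 2852 against 2001. Over the 7 sorted libraries Pearson's r between the receptors was 0.82 on log2(RPKM + 1), with a Spearman's rho of 0.82, and r was 0.71 without clusters 2 and 6, the libraries farthest from the median of Pdgfra. This is a description of 7 libraries that share the composition effects given above.

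**Figure D1:**
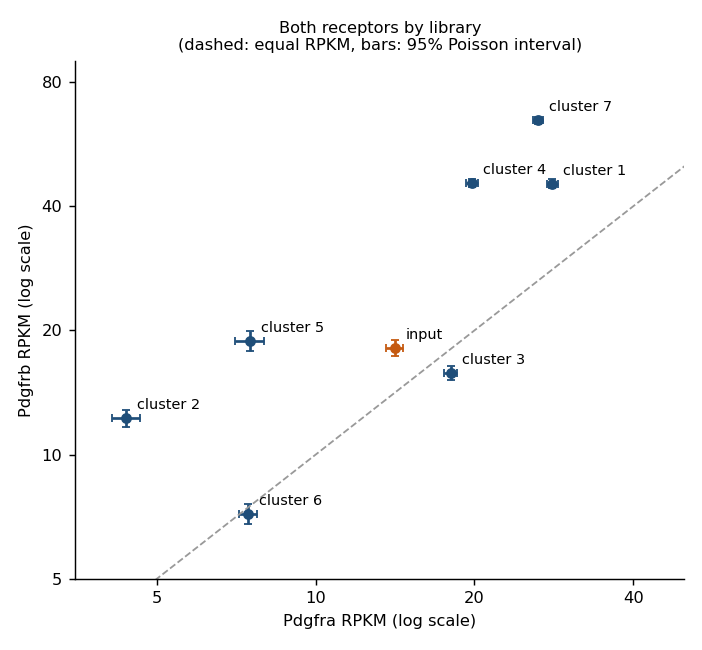
RPKM of Pdgfra (horizontal, log scale) against Pdgfrb (vertical, log scale) in the 7 sorted libraries (blue) and the input (orange), with 95% Poisson intervals as bars and equal levels as the dashed line. Cluster 3 lies below the line with a ratio of 1.14, cluster 6 lies on it within counting error, and the other 6 libraries lie above it.

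Marker genes of other cell types followed several orders, of which some resembled that of Pdgfrb. In a list of 11 pericyte and smooth muscle genes the summed RPKM was 119, 84.7, 48.6, 79.2, 35.9, 55.7 and 122 in clusters 1 to 7, against 42.5 in the input. Acta2, smooth muscle actin, was the most abundant of them in clusters 1, 4, 5 and 7, and Cspg4, the proteoglycan NG2, in clusters 2 and 6. Acta2 itself was highest in cluster 7, at 84.7, and lowest in cluster 6, at 4.68, as was Pdgfrb. Cspg4 ran against this order, at 43.0 in cluster 6, 39.2 in cluster 2 and 10.1 in cluster 7, and Rgs5 was highest in cluster 3 (16.5) and 4.39 in cluster 7. Of these 11 genes, 9 had an RPKM above 2 in clusters 1 and 7 and 3 in cluster 6, and none was at 0 in any library. Cxcl12, the chemokine of perivascular stroma, was highest in cluster 4 (139) and lowest in cluster 6 (5.04), and its r with Pdgfrb over the 7 libraries was 0.84. Bglap, which encodes osteocalcin of osteoblasts, ran in the other direction, with 254, 190 and 276 in clusters 1, 4 and 7 against 3176 to 14020 in the other 4 clusters, and its r with Pdgfrb was -0.91. Other osteoblast genes did not all follow Bglap, since Ibsp was 676 and 740 in clusters 4 and 7 against 446 and 220 in clusters 3 and 5, with an r of -0.48, and Spp1 was 1313 and 1298 against 852 in cluster 5. The part of these cells in the Pdgfrb pattern was not tested.

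With Ly6a, which encodes Sca-1, r was 0.70 for Pdgfra and 0.67 for Pdgfrb. Ly6a was highest in cluster 3 at 931 and lowest in cluster 6 at 4.98, and cluster 1 had 590, cluster 4 had 431 and cluster 7 had 226. Of the 5 other adventitial fibroblast genes listed, Cd34, Dpt, Clec3b and Pi16 were highest in cluster 1 and lowest in cluster 6, although with TMM factors Clec3b was highest in cluster 3. Dpp4 was highest in cluster 3 (20.9, against 7.69 in cluster 1) and lowest in cluster 5. Sca-1 was among the proteins used to sort, so the sort and the Ly6a level of a population cannot be told apart.

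Pdgfrl encodes a secreted protein that resembles the extracellular part of PDGFR-β and has no kinase domain. It lies on the plus strand of chromosome 8 at chr8:40926212-40990785. Its RPKM was 38.7, 32.5, 23.9, 94.6, 22.4, 51.2 and 69.0 in clusters 1 to 7, against 42.3 in the input. Per exon length (3126 bases), Pdgfrl was above both kinase receptor genes in every library other than cluster 1, in which it was below Pdgfrb. In reads alone it was below both in clusters 1, 3, 5 and 7, and below Pdgfra in the input. Cluster 4 was 4.22 times cluster 5 (3.94 to 4.53), and clusters 3 and 5 did not differ beyond counting error (1.07, 0.986 to 1.16). With TMM factors cluster 3 became the lowest library, cluster 4 remained highest, and the ratio between them was 3.99 (3.80 to 4.19). The log2 difference (RPKM + 1) between clusters 4 and 5 was 2.03 by total count and 1.65 with TMM factors. It was 1.27 without the ribosomal, mitochondrial and haemoglobin loci. Unlike Pdgfrb, Pdgfrl was not low in cluster 6. After TMM scaling clusters 7 and 6, at 66.7 and 66.0, did not differ beyond counting error.

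**Figure D2:**
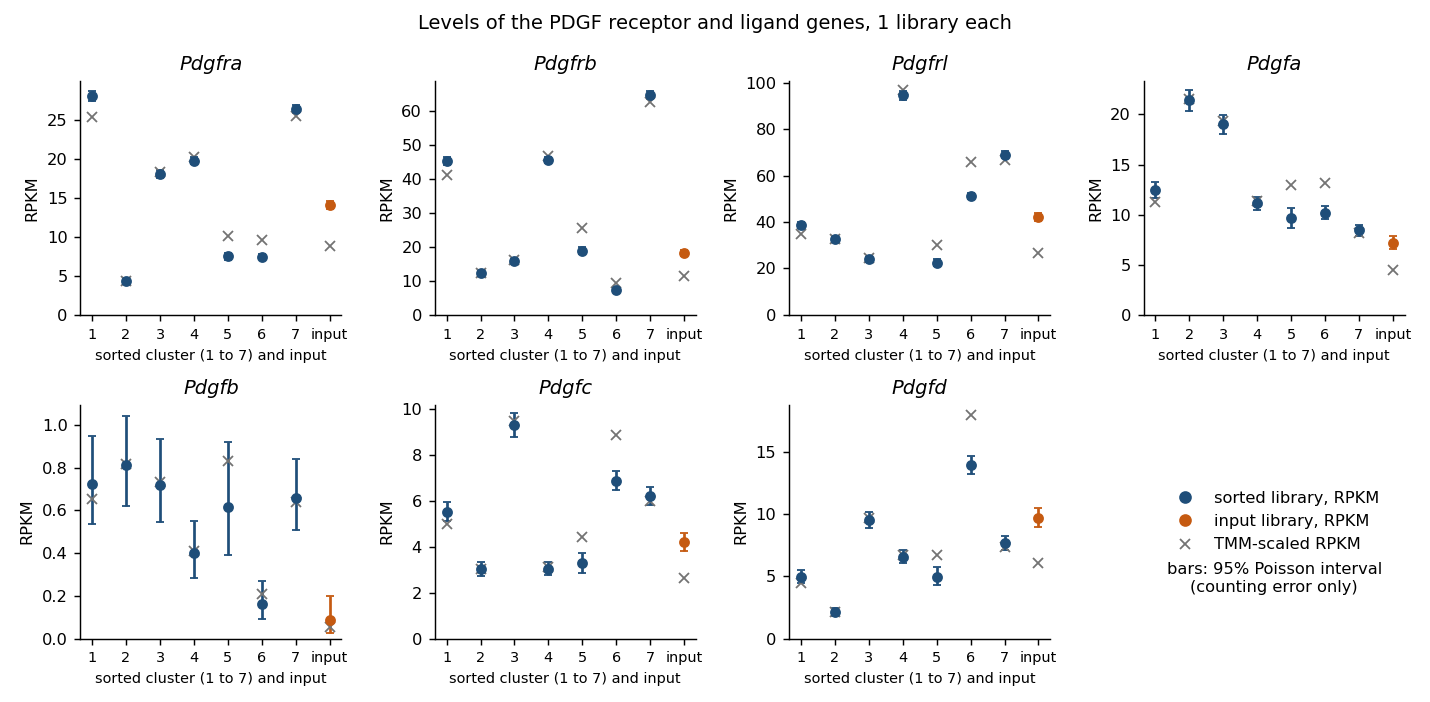
RPKM of each of the 7 PDGF genes in clusters 1 to 7 (blue) and the input (orange), with 95% Poisson intervals as bars and TMM-scaled RPKM as grey crosses, 1 library per point and vertical axes that differ between genes. The receptor genes Pdgfra and Pdgfrb are high in clusters 1, 4 and 7, Pdgfa is highest in cluster 2 at 21.4, and Pdgfd is highest in cluster 6 at 14.0.

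Among the ligands, Pdgfa, which encodes the A chain, lies on the minus strand at chr5:138976014-138997370. Its RPKM was 12.4, 21.4, 19.0, 11.1, 9.62, 10.2 and 8.43 in clusters 1 to 7, against 7.17 in the input. All 7 sorted libraries were above the input on both scales. Cluster 2, the lowest library for Pdgfra, was the highest for Pdgfa, and cluster 7, which was among the highest for both receptors, was the lowest. The ratio of cluster 2 to cluster 7 was 2.54 (2.34 to 2.76), and only clusters 6 and 5 of the neighbours in the order did not differ beyond counting error (1.06, 0.941 to 1.19). With TMM factors cluster 2 was still highest and cluster 7 lowest, but clusters 6, 5, 4 and 1 followed cluster 3 in that order, and neither clusters 6 and 5 (1.01, 0.897 to 1.14) nor clusters 4 and 1 (1.01, 0.928 to 1.11) differed beyond counting error. Over the 7 libraries r between Pdgfra and Pdgfa was -0.33 by total count and -0.69 with TMM factors, and without clusters 2 and 6 it was 0.10 by total count.

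Within a library the Pdgfa level could be set directly against that of Pdgfra, the receptor of the A chain. The ratio of ligand to receptor was 4.89 in cluster 2 (4.53 to 5.28), and 1.37 (1.27 to 1.47), 1.28 (1.14 to 1.44) and 1.05 (0.994 to 1.11) in clusters 6, 5 and 3. It was 0.562, 0.443 and 0.319 in clusters 4, 1 and 7, against 0.508 in the input. Pdgfa was thus above Pdgfra beyond counting error in clusters 2, 5 and 6, and below it in clusters 1, 4 and 7. This order rests on the exon lengths of 3119 bases for Pdgfa and 10024 for Pdgfra, and in reads alone Pdgfa was below Pdgfra in clusters 5 (385 against 966) and 6 (1006 against 2362). Of the 3119 exon bases of Pdgfa, 813 (26.1%) are shared with 6330403L08Rik on the opposite strand, which itself had at most 106 counts in a library. Whether counting used the strand is not stated in the sources used here, so reads of the shared bases cannot be assigned to either gene. Pdgfra shares 6.50% of its exon bases with 3 genes of at most 33 counts, and Pdgfc 2.89% with Gm16000.

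Promoter windows from RefSeq (GRCm38.p6, 250 bases before to 50 bases after a start) were found for 4 of the 7 genes, namely Pdgfra, Pdgfa, Pdgfc and Pdgfd. They are shown for Pdgfra and Pdgfa, whose levels had opposite ends in cluster 2, and for Pdgfd, whose level was highest in cluster 6. Each window is written 5′ to 3′ on the strand of its gene, and capitals mark a GC box (GGGCGG, or CCGCCC for the other strand) or a TATA box (TATAAA). The windows are chr5:75152001-75152300 on the plus strand for Pdgfra, chr5:138994895-138995194 on the minus strand for Pdgfa and chr9:6168236-6168535 on the plus strand for Pdgfd.
Pdgfra: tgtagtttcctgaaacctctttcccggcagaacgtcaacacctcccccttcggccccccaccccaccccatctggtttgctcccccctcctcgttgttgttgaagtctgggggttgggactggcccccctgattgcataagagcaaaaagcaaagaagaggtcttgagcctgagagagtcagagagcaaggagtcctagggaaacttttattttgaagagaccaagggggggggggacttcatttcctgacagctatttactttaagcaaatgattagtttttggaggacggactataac
Pdgfa: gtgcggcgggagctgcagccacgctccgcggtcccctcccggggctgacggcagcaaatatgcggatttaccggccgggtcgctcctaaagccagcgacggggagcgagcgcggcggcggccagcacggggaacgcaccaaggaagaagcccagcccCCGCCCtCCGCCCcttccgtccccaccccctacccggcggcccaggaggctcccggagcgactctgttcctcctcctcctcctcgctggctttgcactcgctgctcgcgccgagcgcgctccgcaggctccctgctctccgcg
Pdgfd: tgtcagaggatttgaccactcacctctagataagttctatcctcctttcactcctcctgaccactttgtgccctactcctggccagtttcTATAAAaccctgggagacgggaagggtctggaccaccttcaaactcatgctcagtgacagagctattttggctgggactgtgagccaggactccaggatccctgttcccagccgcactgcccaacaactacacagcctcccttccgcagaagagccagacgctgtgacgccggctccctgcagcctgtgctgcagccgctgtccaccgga
The Pdgfa window had a GC content of 73.3%, against a median of 52.7% over all promoter windows of that length, and held 2 GC boxes that begin 93 and 86 bases before the start. The second Pdgfa window of the table, from a start further downstream at chr5:138994232-138994531, had 67.0% and 1 GC box. The Pdgfra window had 51.0% and the Pdgfc window 55%, both with no match. The Pdgfd window had 56.7% and 1 TATAAA, which begins 160 bases before the start. Searches on both strands for CCAAT and for TGTGGT, the core of RUNX sites, found no match in the 5 windows, and the searched motifs do not overlap one another. Over all 32851 promoter windows GGGCGG was found in 35.7%, TATAAA in 13.6%, CCAAT in 37.4% and TGTGGT in 16.8%, so a match or its lack is a description of the letters alone.

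Pdgfb, which encodes the B chain known from endothelial cells and platelets, lies on the minus strand at chr15:79995900-80014808 and had few counts. It had 51, 60, 57, 38, 23, 15 and 64 counts in clusters 1 to 7 and 5 in the input. In RPKM these were 0.722, 0.811, 0.721, 0.40, 0.614, 0.162, 0.660 and 0.0850 in the same order. By total count, cluster 6 was the only sorted library separated from its neighbour in the order, and cluster 2 was 5.0 times cluster 6 (2.80 to 9.48). With TMM factors cluster 5 became the highest library, although its ratio to cluster 2 was 1.02 (0.601 to 1.67), and clusters 7 and 4 were then separated as well (1.55, 1.02 to 2.39).

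The summed RPKM of 9 megakaryocyte and platelet genes was 72.1, 33.9, 99.1, 19.9, 61.7, 6.04 and 28.7 in clusters 1 to 7, against 24.2 in the input. Pf4, platelet factor 4, was the most abundant of them in every library, and cluster 6 had the lowest level of Pf4 (2.28) as well as of Pdgfb. Of the others, Gp1ba, Gp6 and Treml1 were below an RPKM of 2 in all 8 libraries, Gp9 had 0 counts in cluster 2 and Gp6 had 0 counts in cluster 6. The summed level of 10 endothelial genes was 22.8, 14.5, 18.7, 6.50, 20.7, 4.40 and 15.7 in clusters 1 to 7, against 22.6 in the input, led by Esam or Pecam1 and with no gene at 0. Clusters 4 and 6 were thus lowest for Pdgfb and for both marker lists. The r between Pdgfb and Pf4 was 0.89 over the 7 libraries and 0.01 without clusters 4 and 6, so that it rests on those libraries. The part of these cells in the Pdgfb counts was not tested.

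Pdgfc and Pdgfd encode chains that are secreted in a latent form, in which an N-terminal CUB domain must be removed by proteases. Pdgfc, on the plus strand at chr3:81036416-81214040, had an RPKM of 5.51, 3.02, 9.30, 3.05, 3.28, 6.88 and 6.20 in clusters 1 to 7, against 4.19 in the input. By total count, clusters 5, 4 and 2 were lowest, with neighbours that did not differ beyond counting error, and cluster 3 was 3.08 times cluster 2 (2.75 to 3.46). With TMM factors clusters 3 and 6 did not differ beyond counting error (1.07, 0.983 to 1.16), nor did clusters 1 and 5 (1.13, 0.965 to 1.32), whereas cluster 5 was above cluster 4 (1.42, 1.20 to 1.67).

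Pdgfd, on the plus strand at chr9:6168584-6378850, had an RPKM of 4.95, 2.11, 9.51, 6.58, 4.99, 14.0 and 7.66 in clusters 1 to 7, against 9.70 in the input. Cluster 6 was highest on both scales and was the only sorted library above the input by total count, whereas 5 of the 7 were above it with TMM factors. The ratio of cluster 6 to cluster 2 was 6.60 (5.62 to 7.79), or 8.47 with TMM factors (7.21 to 9.99). Clusters 5 and 1 did not differ beyond counting error (1.01, 0.845 to 1.20), and with TMM factors clusters 7, 5 and 4 were the neighbours that did not. The highest level of Pdgfd thus stood in the library in which Pdgfrb, the receptor of the D chain, was lowest. Cluster 6 was also the highest library for the osteoblast genes Ibsp (3192), Sp7 (38.6), Alpl (404), Spp1 (2681) and Dmp1 (415), whereas Bglap was highest in cluster 3 (14020, against 11032 in cluster 6). The r of Pdgfd was 0.51 with Ibsp and 0.24 with Bglap.

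Over the 7 libraries r between Pdgfc and Pdgfd was 0.72, and it was 0.69 without clusters 2 and 4. Their ratio was not constant, however. The ratio of Pdgfc to Pdgfd was 1.43 in cluster 2 (1.19 to 1.72), and the genes did not differ beyond counting error in clusters 1 (1.11, 0.980 to 1.27) and 3 (0.978, 0.895 to 1.07). Per exon length, Pdgfc was below Pdgfd in clusters 4, 5, 6 and 7, with ratios of 0.464, 0.657, 0.493 and 0.809, and in the input, with 0.432. In reads alone, over exon lengths of 5089 bases for Pdgfc and 3154 for Pdgfd, Pdgfc was above Pdgfd in clusters 5 (214 against 202) and 7 (1048 against 803).

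The sum of the 4 ligand genes was 23.6, 27.3, 38.5, 21.1, 18.5, 31.2 and 22.9 in clusters 1 to 7, against 21.1 in the input. Pdgfa was the leading ligand in 6 of the 7 sorted libraries and made up 78.2% of the ligand sum in cluster 2. In cluster 6 Pdgfd led with 44.8% of the sum, as in the input with 45.9%. In cluster 7 the lead of Pdgfa over Pdgfd was within counting error (1.10, 0.999 to 1.21). Pdgfb made up at most 3.32% of the sum in any library.

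The ligand sum divided by the sum of Pdgfra and Pdgfrb was 2.13, 1.64 and 1.14 in clusters 6, 2 and 3. It was 0.702, 0.324, 0.322 and 0.252 in clusters 5, 4, 1 and 7, against 0.656 in the input. Per exon length, the ligand sum was thus above the receptor sum in clusters 2, 3 and 6, with Pdgfa leading in clusters 2 and 3 and Pdgfd in cluster 6. In reads alone it was below the receptor sum in all 8 libraries, with 2310 against 2813 in cluster 2, 3759 against 7247 in cluster 3 and 3524 against 3607 in cluster 6. The receptor sum varied more than the ligand sum, from 14.6 in cluster 6 to 90.9 in cluster 7 by total count. With TMM factors the lowest receptor sum was that of cluster 2. Its Pdgfra and Pdgfrb were then 4.39 and 12.3, against 9.59 and 9.25 in cluster 6.

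**Figure D3:**
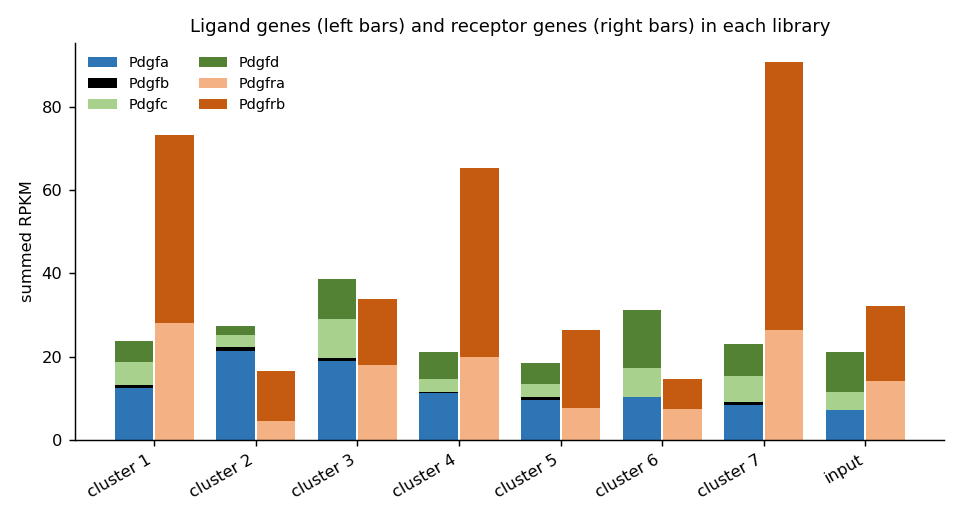
Summed RPKM of the 4 ligand genes (left bars) and of Pdgfra and Pdgfrb (right bars) in each library, stacked by gene, 1 library per pair of bars. Ligand sums lie between 18.5 and 38.5, whereas receptor sums lie between 14.6 in cluster 6 and 90.9 in cluster 7, and ligand bars exceed receptor bars in clusters 2, 3 and 6.

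The range of each gene was set against that of all genes. A gene was counted as differing when its RPKM was above 2 in at least 1 sorted library and its RPKM + 1 in the highest library was more than 2 times that in the lowest. Pdgfb did not reach an RPKM of 2, and all of the other 6 PDGF genes differed, where 70.6% of the 12360 genes tested did so, so the count alone does not set the family apart. The median log2 difference of the 6 genes was 2.15, against 1.26 for all genes tested, and 2.12 against 1.10 with TMM factors. This measure depends on level, since genes with a highest RPKM near 2 can reach only a small difference on RPKM + 1. The genes tested were not matched to the family by level, which also holds for the gene lists below. The family was chosen with earlier results known, so its place among all genes is a description only. By this measure Pdgfrb (3.0) was at or above 95.4% of the genes tested, Pdgfra (2.44) at 91.3%, Pdgfd (2.26) at 89.2% and Pdgfrl (2.03) at 85.1%. Pdgfc (1.36) at 56.9% and Pdgfa (1.25) at 49.3% were near the middle.

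**Figure D4:**
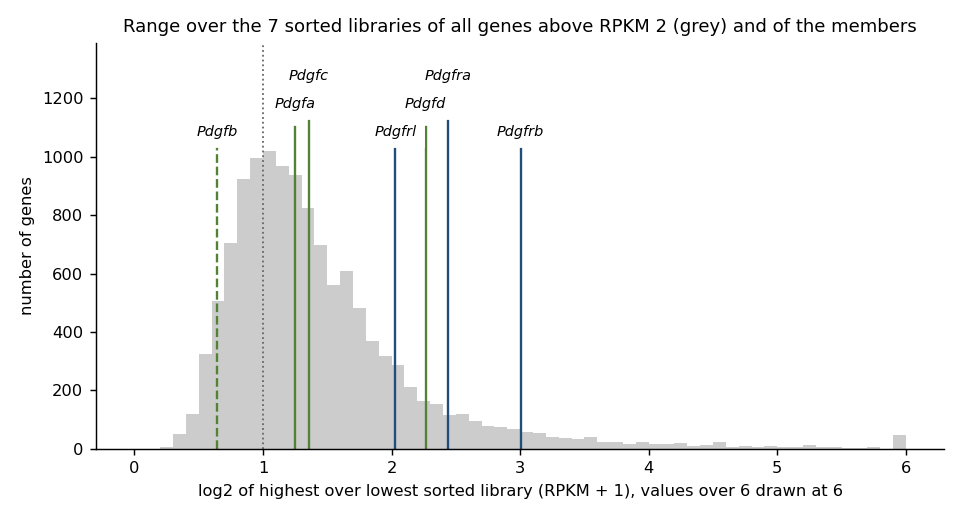
Histogram of the log2 ratio of the highest to the lowest sorted library (RPKM + 1) over the 12360 genes with an RPKM above 2, with the 7 PDGF genes as vertical lines (blue for receptors and Pdgfrl, green for ligands, dashed for Pdgfb, which was below an RPKM of 2) and the 2-fold threshold as a dotted line. Pdgfrb at 3.0 and Pdgfra at 2.44 lie in the right tail, and Pdgfa at 1.25 lies near the median of 1.26.

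None of the 6 genes was specific to 1 population, that is, more than 2 times above each of the other 6 sorted libraries, where 5.4% of the genes tested were. None was more than 2 times above the input in all 7 sorted libraries (0.472% of 19088 genes) and none was more than 2 times below it in all of them (31.2%). These counts were also 0 with TMM factors.

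Genes that process or bind PDGFs extracellularly mostly differed between libraries. Of the 10 genes listed, 9 had an RPKM above 2, and all 9 differed by more than 2 times on both scales, against 70.6% of all genes by total count and 56.8% with TMM factors, with a median log2 difference of 1.81 against 1.26. Plat, which encodes tissue plasminogen activator, a protease that activates PDGF-C, was highest in cluster 7 (53.1) and lowest in cluster 2 (6.68), and was 11.5 in cluster 6. Plau, which encodes urokinase, a protease that activates PDGF-D, was 8.15, 2.37, 10.7, 11.6, 4.16, 0.943 and 8.91 in clusters 1 to 7. The urokinase gene was thus lowest in the library in which Pdgfd was highest. St14, which encodes matriptase, another protease known to cleave PDGF-D, was at most 0.575 in the sorted libraries and 2.76 in the input. Furin, a proprotein convertase that cleaves the A and B chains, was highest in cluster 6 (11.7) and lowest in cluster 5 (2.61).

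The binding partners followed other orders. Sparc, a matrix protein that binds PDGF-B, was far more abundant than any other gene of the list, highest at 11884 in cluster 6 and lowest at 3836 in cluster 5, or in cluster 1 with TMM factors. Lrp1, an endocytic receptor that associates with PDGFR-β, was highest in cluster 4 (74.3) and lowest in cluster 5 (17.0), or in cluster 2 with TMM factors (21.4). Nrp1, a co-receptor, was highest in cluster 4 (14.9), followed by clusters 7 (13.8) and 1 (11.7), the 3 libraries in which Pdgfrb was high, and lowest in cluster 6 (3.06).

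Of 18 genes of receptor-proximal signalling, all with an RPKM above 2 in a sorted library, 10 differed by more than 2 times and 6 did so with TMM factors, against 70.6% and 56.8% of all genes. Their median log2 difference was 1.05 against 1.26 for all genes. The adaptor gene Grb2 ranged only from 19.1 in cluster 5 to 24.9 in cluster 7, and Plcg1, encoding phospholipase C-gamma, from 3.84 to 6.75 in the same clusters. With TMM factors both were lowest in cluster 2 and highest in cluster 6. The widest range was that of Fyn, a Src family kinase, at 43.3 in cluster 3 and 11.3 in cluster 2. Pik3r2, a regulatory subunit of PI3 kinase, was 16.3 in cluster 3 and 4.53 in cluster 5.

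Of 8 negative regulators, 6 differed and 5 did so with TMM factors, which is close to the 70.6% and 56.8% of all genes, and their median log2 difference was 1.34 against 1.26. Spry1, a feedback inhibitor of receptor tyrosine kinase signalling, had the widest range, with an RPKM of 47.3, 6.76, 10.6, 24.6, 7.48, 2.77 and 36.0 in clusters 1 to 7, against 8.02 in the input. As for Pdgfrb, clusters 1, 4 and 7 were the highest libraries and cluster 6 the lowest. Spry4 was likewise above 7 in clusters 1 (7.79), 4 (7.50) and 7 (7.32) and below 4 in the other 4. Spry2 did not share this order, at 16.6 in cluster 1 but 3.78 in cluster 7. The ubiquitin ligase genes Cbl and Cblb, which act in receptor degradation, did not differ by more than 2 times.

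**Figure D5:**
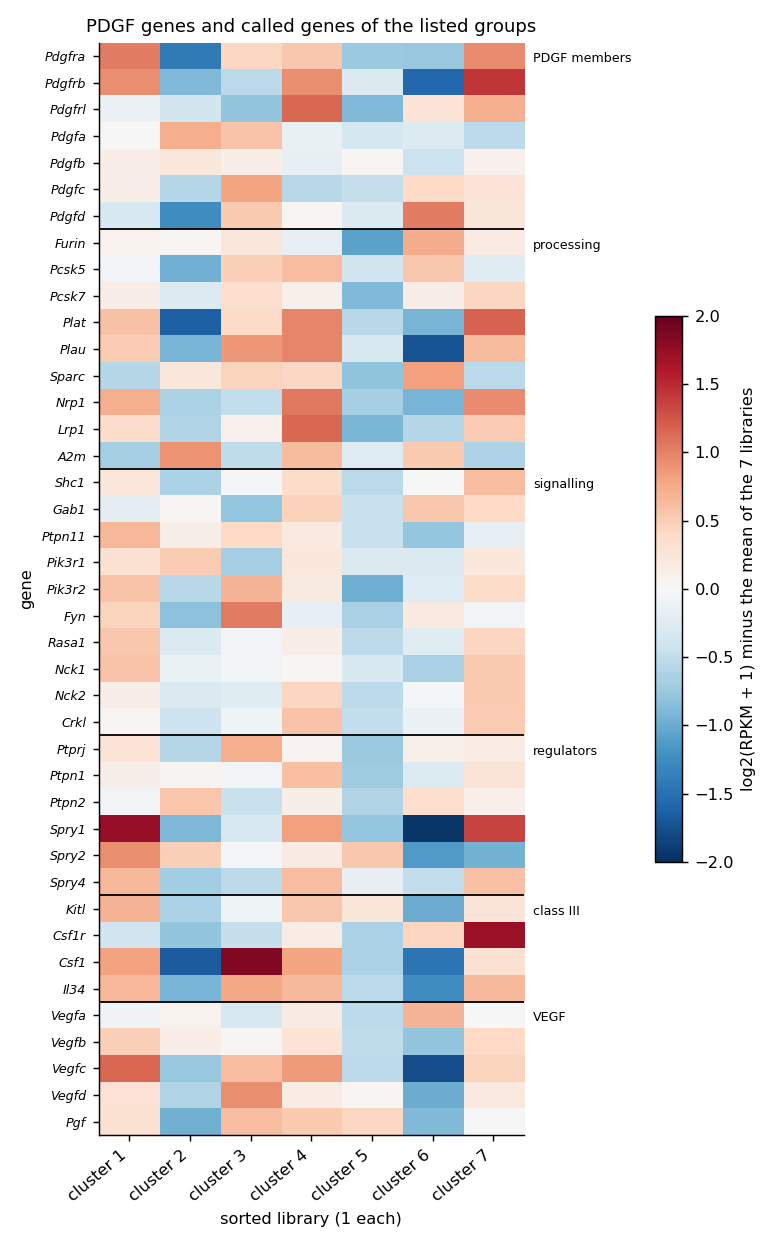
Log2(RPKM + 1) minus its mean over the 7 sorted libraries, by gene (rows) and library (columns), for the 7 PDGF genes and for the genes of the 5 listed groups that differed by more than 2 times, with red for above and blue for below the mean. Pdgfrb, Spry1 and Nrp1 are red in clusters 1, 4 and 7, whereas Pdgfd and Furin are reddest in cluster 6.

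Both receptor genes lie beside receptor genes of related kinases. Kit and Kdr follow Pdgfra on chromosome 5 at 377 and 735 kb, and Csf1r follows Pdgfrb on chromosome 18 at 20.5 kb. Kit was at most 1.57 and Kdr at most 1.49 in the sorted libraries, where Pdgfra reached 28.1. Csf1r, the receptor of macrophage colony-stimulating factor, was 2.71, 1.81, 2.49, 4.40, 2.14, 5.55 and 15.0 in clusters 1 to 7, against 23.1 in the input. It shared its highest library with Pdgfrb but was low in cluster 1, and its r with Pdgfrb was 0.46. The macrophage gene Cd68 was also highest in cluster 7 among the sorted libraries (32.4) and was 53.5 in the input, and Ptprc, which encodes the CD45 used for exclusion, was 9.26 in cluster 7 and 1.69 to 4.02 in the other sorted libraries.

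For each PDGF gene above an RPKM of 2, the 3 genes with the most similar profile over the 7 sorted libraries were taken from 8053 genes with a symbol that differed by more than 2 times, by r of log2(RPKM + 1). They were Arhgap28 (0.99), Ak3 (0.99) and Tnfaip3 (0.98) for Pdgfra, and Arrdc4, A430107O13Rik and Gsdmd (all 0.99) for Pdgfrb. For Pdgfrl they included Gaa (0.98) and Gch1 (0.96). For Pdgfa they were Gm12168 (0.98), Gm14167 (0.97) and Gm5566 (0.96). Adam10 (0.96), Mamdc2 (0.95) and Elmo1 (0.94) were nearest to Pdgfc, and S1pr3 (0.97), Lox (0.95) and Tfg (0.91) to Pdgfd. The genes named depend in part on the scaling. With TMM factors the rank was 4 for Arhgap28, 9 for Arrdc4 and 12 for Gch1. It was 6 for Gm14167, 4 for Gm5566 and 13 for Mamdc2, and the other named genes stayed among the 3 nearest. An r above 0.95 was reached by 77 genes for Pdgfra and 87 for Pdgfrb but by 1 gene each for Pdgfc and Pdgfd, and with 7 points these values are a description only. No PDGF gene was among the 3 nearest of another.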

How the data were processed

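RNA-seq of 7 sorted populations and input cells was used, with 1 library each. The authors deposited unscaled counts for each Ensembl gene with exon positions and lengths. The Methods name trimming, TopHat2, mm9, RPKM and, per the submitters' processing notes, Partek 2.2, whereas the deposited coordinates are those of GRCm38. The counting tool and its strand setting are not given in the sources used here. The labels describe RNA of crushed marrow and the Methods RNA of sorted cells.

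RPKM was computed here from the deposited counts, the total on genes and the exon length, and 32464 of the 49315 genes had a symbol. Differences were taken on log2(RPKM + 1) among genes with RPKM above 2. Intervals are exact Poisson for levels and exact binomial for ratios, at 95%. Because each population had 1 library, edgeR and DESeq2 gave scaling factors only and no test was made. The genes named are the 7 members, the genes of the lists, and the 3 most similar genes for each member. Some genes that this rule names are not reported here. The members and lists were chosen with earlier results of these data known. Counts of all 49315 genes were simulated for the range over the sorted libraries. Of 200 genes raised 4-fold, 200 were called, with 231 calls on unchanged genes. These counts were drawn with Poisson error alone from a mean profile shared by all libraries, so they hold no spread between animals or sorts. The 4-fold rise lay well above the 2-fold threshold, so the recovery was nearly fixed in advance. Alternatives comprised TMM factors, DESeq2 size factors, a total without ribosomal, mitochondrial and haemoglobin loci, a pseudocount of 0.1, other RPKM filters, reads without the exon length, equal depth and omission of cluster 5. Python 3.11.15, R 4.3.3, edgeR 4.0.16 and DESeq2 1.42.0 were used.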

Additional observations from a re-analysis of the deposited data

How the results depend on the processing

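No paired analysis was possible because only 1 library per population was made, which also left no replicate to omit. Of 89 values under alternatives, 70 stayed within counting error (or 1.5 times for counts), 19 moved and 0 reversed. Some of the 70 could not change. An RPKM filter does not alter a gene's difference, nor does omitting cluster 5 where it is neither highest nor lowest. A difference of the highest over the lowest library could also hardly reverse, so the tally does not measure robustness. The log2 difference of Pdgfra between clusters 1 and 2, 2.44 (2.35 to 2.53), was 2.29 with TMM factors, 2.25 with DESeq2 size factors, 2.34 without ribosomal, mitochondrial and haemoglobin loci, 2.66 with a pseudocount of 0.1 and 2.53 at equal depth. That of Pdgfrb between clusters 7 and 6, 3.0 (2.92 to 3.09), was 2.63 with TMM factors, 2.58 with DESeq2 size factors and 3.15 with a pseudocount of 0.1. Among the sorted libraries Pdgfra was above Pdgfrb in 2, in 1 at equal depth and in 3 by reads without the exon length. Pdgfa led the ligands in 6, and in 5 by reads without the exon length. The alternatives for the other 5 genes were added after seeing the data. The log2 difference of Pdgfrl between clusters 4 and 5, 2.03, was 1.65 with TMM factors and 1.27 without the ribosomal, mitochondrial and haemoglobin loci, which hold a large part of the cluster 5 counts. Genes differing across the 7 sorted libraries numbered 8726 by total count, 7208 with TMM factors and 7200 with DESeq2 size factors, those above the input in all 7 were 90, 350 and 346, and those below it 5953, 2989 and 3122. Over the 6 sorted libraries without cluster 5 these were 6304, 137 and 6088. Genes specific to 1 library numbered 667, and 1046 without the named loci. Depth limits Pdgfb, with 15 to 64 counts per sorted library.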

Other observations

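Ligands and receptors of families related to the PDGFs were also measured in these libraries. Among the other class III receptors and their ligands, 4 of 7 genes (Kitl, Csf1r, Csf1 and Il34) had an RPKM above 2 in a sorted library, and all 4 differed by more than 2 times on both scales, against 70.6% of all genes by total count and 56.8% with TMM factors, with a median log2 difference of 2.27 against 1.26 for all genes. Csf1, macrophage colony-stimulating factor, was 35.8, 5.66, 74.7, 35.3, 12.5, 6.61 and 25.1 in clusters 1 to 7, against 18 in the input. Il34, the other ligand of the same receptor, was between 8.28 and 9.12 in clusters 1, 3, 4 and 7 and between 1.5 and 3.06 in clusters 2, 5 and 6. The libraries above the input for Csf1 and Il34 were thus the same 4 clusters as those above it for Pdgfra by total count. With TMM factors the sets differed, since cluster 6 was then above the input for Pdgfra but not for Csf1 or Il34. Kitl, stem cell factor, was highest in cluster 1 (5.36), or in cluster 5 with TMM factors (4.97), and lowest in cluster 6 (0.980).

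Of 8 VEGF ligand and receptor genes, which share the cystine-knot fold of the PDGFs or bind such ligands, 5 were tested and all were ligands. All 5 differed by more than 2 times and 4 did so with TMM factors, against the same 70.6% and 56.8% of all genes. Vegfa was highest in cluster 6 at 56.8, as was Pdgfd, and was 24.0 to 39.4 in the other sorted libraries. Vegfc, a lymphatic growth factor, was highest in cluster 1 at 9.82 and 0.425 in cluster 6. Pgf, placental growth factor, was 15.4 in cluster 3 and 4.49 in cluster 2, and with TMM factors cluster 5 was highest. The receptor genes Flt1, Kdr and Flt4 were at most 1.49 in any library.

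Genes of blood cells were present in every library. S100a9 of neutrophils was 4834 in cluster 3, the lowest value, 11033 in cluster 5, the highest sorted value, and 14745 in the input. The B lineage gene Cd79a was 9.07 to 39.9 in the sorted libraries and 86.8 in the input. Hba-a1 of erythroid cells was 593 in cluster 6 and 30376 in cluster 5, against 267 in the input.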
